A study of Mus musculus with 6 samples.

Results

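The NDRG (N-myc downstream regulated gene) family has 4 members in the mouse, Ndrg1, Ndrg2, Ndrg3 and Ndrg4. They were taken by name, and all 4 were among the 17068 genes of the deposited table, of which 17047 identifiers could be named. The table came from bulk RNA-Seq of the lateral cortex of 6 female c57/bl6 embryos at E12.5. The 4 control embryos carried no Cre, with genotype Foxp1 fl/+ in controls 1, 2 and 4 and Foxp1 fl/fl in control 3. The other 2 embryos were Foxp1 fl/fl;Emx1Cre, labelled Foxp1cKO, in which Emx1-driven Cre acts in progenitors of the dorsal telencephalon and their progeny but not in blood, vessels or meninges. Every embryo therefore carried at least 1 floxed allele, and no Cre-positive control was analysed here. The 6 libraries held between 50076008 and 78346979 counts, so that 3 counts correspond to 0.0381 to 0.0596 CPM, the TMM-scaled share of a library's counts per 1000000. Foxp1 itself was at 59.7, 60.8, 71.2 and 79.1 CPM in controls 1 to 4 and at 83.2 and 76.8 CPM in the libraries labelled Foxp1cKO 1 and 2. It was thus not lower under that label (log2 difference 0.24, SE 0.129, adjusted p = 0.468, edgeR), but counts were made on all exons together and the deleted exons were not counted apart. For this cross the study cites its authors' earlier work for Cre recombination and loss of Foxp1 protein before E12.5. Protein was not measured in these libraries. Control 4 stood apart from the other controls. Its erythroid markers summed to 3429 CPM, near the 3760 and 4021 CPM of the libraries labelled Foxp1cKO and above the 1090 to 1436 CPM of controls 1 to 3, and its neuron markers had the lowest sum of all 6 libraries. The NDRG differences are therefore given with and without it. The study's own model held a litter term, but the labels used here do not give the litter of any library, so that a difference between litters and one between groups cannot be told apart in these fits.

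NDRG proteins share an alpha/beta hydrolase fold without known hydrolase activity. Ndrg1 is a widely used hypoxia marker that hypoxia-inducible factors (HIF) induce and N-myc represses, and its loss causes a demyelinating neuropathy through Schwann cells. Ndrg2 is best known from radial glia and astrocytes, Ndrg3 as an oxygen-regulated protein whose stability depends on the prolyl hydroxylase Egln1, and Ndrg4 from neurons and heart. The question asked here was whether the hypoxia-linked member differed between the groups in the way that other hypoxia targets did, and whether its paralogs differed from it.

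In a fit of group alone, without litter, none of the 4 NDRG genes differed between the groups beyond the spread of the libraries. Genes were called by edgeR (quasi-likelihood fit) at an adjusted p under 0.05, which 0 of 4 members and 0.152% of all genes reached. An unadjusted p under 0.05 was reached by 0 of 4 members and 13% of all genes. DESeq2 and limma also called 0 of 4, where they called 3.36% and 0.158% of genes. The groups overlapped for all 4 members, whereas both libraries labelled Foxp1cKO lay above all controls for 11.5% of genes and below all controls for 13.1%. Over the same libraries 44 of 48 hypoxia targets had a positive fold change, with a median of 1.06 on the log2 scale, against -0.33 for Ndrg1. The study's own model, which held a litter term, lists Ndrg1 among its most upregulated genes. The sign given here for Ndrg1 thus holds only for the fit of group alone.

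Ndrg1, the member with the hypoxia link, carries a repeat near its coding end. It holds 3 successive copies of a 30-base unit, which encode the C-terminal repeats that the kinases SGK1 and GSK3 phosphorylate. The copies span coding bases 1012 to 1101 in the last of 16 exons, chr15:66930951-66931040 on the minus strand of GRCm38 (GENCODE M21), and are shown because the paralogs held no unit in 3 copies that matched as well. Capitals mark the 24 of 30 bases that are the same in all 3 copies.
Ndrg1 copy 1: GAGGGcaCCCGtAGCCGCTCcCAtACCAGc
Ndrg1 copy 2: GAGGGccCCCGaAGCCGCTCgCAcACCAGt
Ndrg1 copy 3: GAGGGgtCCCGtAGCCGCTCcCAtACCAGt
Successive copies matched at 83.3% of bases, and the best 3-copy unit found in the same way matched at 50% in Ndrg2, 53.3% in Ndrg3 and 61.1% in Ndrg4.

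What the family shares at this end is short. The last 60 coding bases of the principal transcripts, before the stop codon, are given with capitals where all 4 members have the same base.
Ndrg1: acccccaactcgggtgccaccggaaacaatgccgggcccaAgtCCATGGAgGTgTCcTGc
Ndrg2: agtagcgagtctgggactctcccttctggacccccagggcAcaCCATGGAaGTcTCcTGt
Ndrg3: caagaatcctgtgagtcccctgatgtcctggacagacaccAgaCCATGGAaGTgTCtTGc
Ndrg4: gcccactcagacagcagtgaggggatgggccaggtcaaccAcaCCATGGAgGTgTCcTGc
They lie at chr15:66930870-66930929 (minus strand), chr14:51906143-51906202 (minus), chr2:156928703-156928762 (minus) and chr8:95713270-95713329 (plus). Of the 14 bases that all 4 share, 11 fall in the last 15. Coding lengths without the stop codon were 1182, 1071, 1125 and 1017 bases for Ndrg1 to Ndrg4. Aligned coding sequences were identical at 65.2% of bases (Ndrg2 and Ndrg3) to 72.2% (Ndrg1 and Ndrg4). The longest run shared by any transcripts of 2 members, on either strand, was 17 to 33 bases.

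Ndrg1 (ENSMUSG00000005125.13, chr15:66929318-66969640, minus strand) was at 33.2, 30.5, 36 and 8.32 CPM in controls 1 to 4 and at 14.5 and 28.3 CPM in the libraries labelled Foxp1cKO 1 and 2. Control 4 was the lowest of all 6 libraries and the first library labelled Foxp1cKO the next lowest, while the other 4 lay close together. The mean level was 27 CPM ± 12.7 (SD, n = 4) in controls and 21.4 CPM ± 9.75 (SD, n = 2) under the Foxp1cKO label. The log2 difference of -0.33 had an SE of 0.557 and a 95% interval from -1.65 to 0.98 (adjusted p = 0.836, edgeR). The controls differed among themselves by 4.32-fold, and the SD of their log2 levels was 1.00, higher than in 98.8% of the 13855 genes with a mean of at least 1 CPM (median 0.16). The counts behind these levels ran from 655 to 2626, for which counting error alone gives a CV of at most 3.91%.

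Leaving out control 4 moved the Ndrg1 difference to -0.63 (SE 0.266, 95% interval -1.27 to 0.011, adjusted p = 0.270, edgeR), and leaving out the first library labelled Foxp1cKO moved it to 0.068. Without control 4, edgeR called 0 of the 4 members and 0.562% of all genes. The direction of the Ndrg1 difference thus turned with the first library labelled Foxp1cKO, and leaving out any single control kept it negative. Both libraries labelled Foxp1cKO (14.5 and 28.3 CPM) were above control 4 (8.32 CPM) and below controls 1, 2 and 3 (30.5 to 36 CPM). The sign thus also depends on which controls are compared. Since the litters are not known, the fit without control 4 may leave out a littermate of the libraries labelled Foxp1cKO. Its more negative value is therefore not a stronger result, and the part of litter was not tested.

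Ndrg2 (ENSMUSG00000004558.15, chr14:51905271-51914158, minus strand) was at 84.9, 71.2, 37.3 and 53.4 CPM in controls 1 to 4 and at 31.7 and 59.8 CPM under the Foxp1cKO label. Its lowest control was control 3, the library where Ndrg1 was highest, and the second library labelled Foxp1cKO lay within the controls. The means were 61.7 CPM ± 20.8 (SD, n = 4) and 45.8 CPM ± 19.9 (SD, n = 2), a log2 difference of -0.43 (SE 0.367, 95% interval -1.30 to 0.44, adjusted p = 0.648, edgeR). Its controls spanned 2.28-fold. The difference was -0.044 without the first library labelled Foxp1cKO and -0.98 without the second. Without control 4 it was -0.49 (adjusted p = 0.539, edgeR).

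Ndrg3 (ENSMUSG00000027634.14, chr2:156927345-156992056, minus strand) was the steadiest member, at 80.8, 86.4, 87.5 and 69.3 CPM in controls 1 to 4 and at 68.9 and 74.6 CPM under the Foxp1cKO label. The controls spanned 1.26-fold and their log2 SD of 0.15 was near the median gene, at percentile 47.7. The means of 81.0 CPM ± 8.33 (SD, n = 4) and 71.7 CPM ± 4.00 (SD, n = 2) gave a log2 difference of -0.18 (SE 0.111, 95% interval -0.44 to 0.087, adjusted p = 0.533, edgeR). Its interval was the narrowest of the 4, and left out any increase above 0.087. Without control 4 the difference was -0.24 (adjusted p = 0.183, edgeR).

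Ndrg4 (ENSMUSG00000036564.17, chr8:95676980-95715119, plus strand) was the one member with a positive difference. It was at 46.6, 64.7, 77.6 and 38.6 CPM in controls 1 to 4 and at 57.3 and 82.1 CPM under the Foxp1cKO label. The second library labelled Foxp1cKO was the highest of all, and the first lay between controls 1 and 2. The means were 56.9 CPM ± 17.6 (SD, n = 4) and 69.7 CPM ± 17.5 (SD, n = 2), a log2 difference of 0.29 (SE 0.286, 95% interval -0.38 to 0.97, adjusted p = 0.691, edgeR). The controls spanned 2.01-fold. Without the second library labelled Foxp1cKO the difference was -0.0088. Without control 4 it was 0.15 (adjusted p = 0.772, edgeR).

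**Figure D1:**
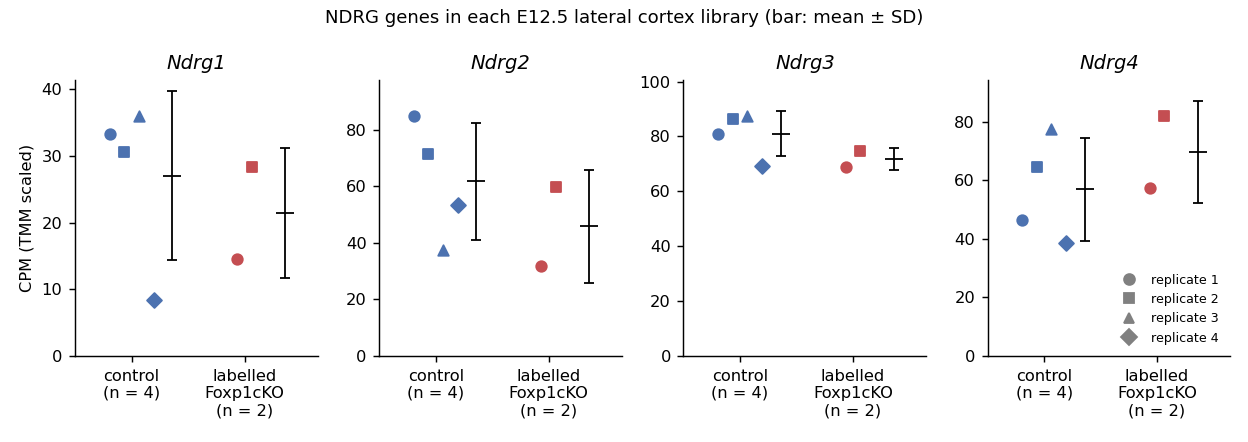
Level of each NDRG gene (CPM, linear axis from 0, a separate scale for each gene) in every control library (blue, n = 4) and every library labelled Foxp1cKO (red, n = 2), with the mean ± SD of each group as bars. The groups overlap for each gene, and Ndrg1 in control 4, at 8.32 CPM, lies below the other 3 controls, at 30.5 to 36 CPM.

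All 4 members were lower in the first library labelled Foxp1cKO than in the second. The second exceeded the first by 1.95-fold for Ndrg1, 1.89-fold for Ndrg2, 1.08-fold for Ndrg3 and 1.43-fold for Ndrg4. For Ndrg1 and Ndrg2 this gap was wider than for 97.9% and 97.7% of genes with a mean of at least 1 CPM, and for Ndrg3 it was wider than for 46.8%. Among the controls, Ndrg1, Ndrg3 and Ndrg4 were all highest in control 3 and lowest in control 4, while Ndrg2 was highest in control 1 and lowest in control 3.

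Levels can be compared between genes only per length, for which RPKM, the CPM per kilobase of the union of exons, were computed. Ndrg1 was the lowest member in every library, at 1.26 to 5.46 RPKM. Ndrg2 ranged from 9.33 to 25 RPKM, Ndrg3 from 8.22 to 10.4 RPKM and Ndrg4 from 7.90 to 16.8 RPKM. In controls the means were 18.2 RPKM ± 6.11 for Ndrg2, 11.6 ± 3.60 for Ndrg4, 9.66 ± 0.99 for Ndrg3 and 4.10 ± 1.92 for Ndrg1 (SD, n = 4). Under the Foxp1cKO label they were 14.2 RPKM ± 3.58 for Ndrg4, 13.5 ± 5.86 for Ndrg2, 8.55 ± 0.48 for Ndrg3 and 3.25 ± 1.48 for Ndrg1 (SD, n = 2). The ranges of Ndrg2, Ndrg3 and Ndrg4 overlapped one another, so that only the place of Ndrg1 was beyond the spread. With the longest transcript as the length, Ndrg3 (20.1 RPKM) and Ndrg4 (18.3 RPKM) changed places in controls, and Ndrg1 (6.68 RPKM) was still the lowest and Ndrg2 (29.3 RPKM) the highest.

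**Figure D2:**
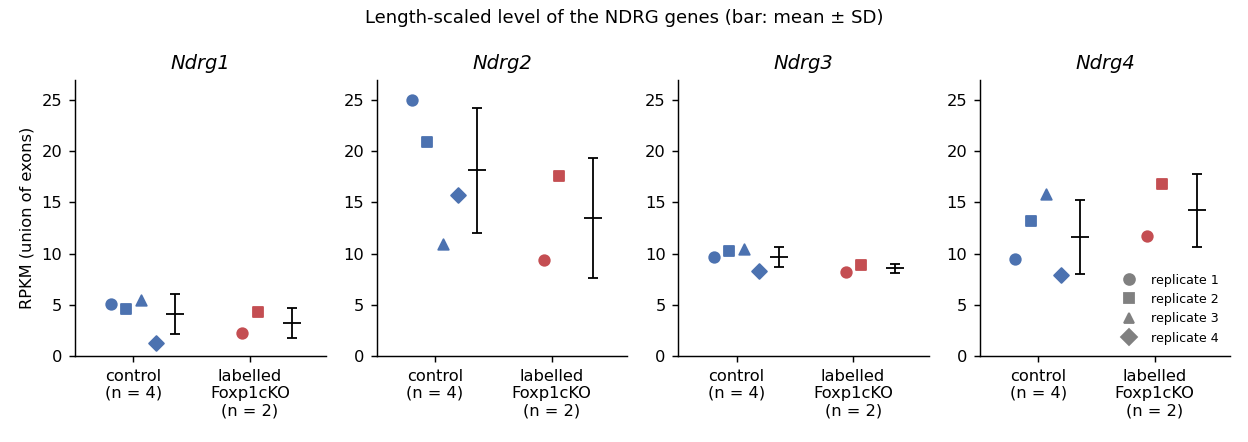
Length-scaled level of each NDRG gene (RPKM on the union of exons, the same linear axis for all) in the 4 control libraries (blue) and the 2 labelled Foxp1cKO (red), with mean ± SD bars. Ndrg1 stays at or below 5.46 RPKM in every library, while the other 3 genes start at 7.90 RPKM or more.

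The make-up of the family also differed between libraries of the same group. Of the summed family level on the RPKM scale, Ndrg1 made up 10.2%, 9.42%, 12.8% and 3.8% in controls 1 to 4 and 7.0% and 9.03% under the Foxp1cKO label. Ndrg2 made up 50.8%, 42.7%, 25.7% and 47.4% in controls and 29.7% and 37.0% under the label, so that control 3 held the smallest share of Ndrg2 and the largest of Ndrg1. The ratio of Ndrg1 to each paralog within a library does not depend on scaling between libraries. On the log2 scale, in CPM, Ndrg1 against Ndrg4 was -0.49, -1.08, -1.11 and -2.21 in controls 1 to 4 and -1.98 and -1.53 under the label. Ndrg1 against Ndrg3 was -1.28, -1.50, -1.28 and -3.05 in controls and -2.24 and -1.40 under the label. Ndrg1 against Ndrg2 was -1.35, -1.22, -0.049 and -2.68 in controls and -1.12 and -1.08 under the label. Control 4 had the lowest of the 6 values for each paralog. The group differences were -0.53 against Ndrg4 (p = 0.4), -0.041 against Ndrg3 (p = 0.933) and 0.22 against Ndrg2 (p = 0.667) by two-sided exact permutation tests, each with an adjusted p of 0.933 over the 3 ratios. The smallest p that an exact permutation test of 4 against 2 libraries can give is 0.133.

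The hypoxia targets, a list of 48 genes that HIF is known to induce, all stood in the table. By edgeR 11 of 48 were higher under the Foxp1cKO label and 0 were lower, against 0.152% of all genes called higher. The median log2 difference of the list was 1.06, against -0.0044 over all genes. Both libraries labelled Foxp1cKO exceeded all controls for 38 of 48 genes, against 11.5% of all genes. DESeq2 called 35 and limma 12, against 3.36% and 0.158% of genes. By edgeR the number called was 3 without control 1, 1 without control 2, 10 without control 3 and 21 without control 4. Over all genes these fits called 6, 2, 20 and 96. Vegfa, the main angiogenic growth factor, was at 71.0, 64.9, 71.7 and 71.3 CPM in controls 1 to 4 and at 231 and 267 CPM under the label (log2 difference 1.84, SE 0.084, adjusted p = 0.0016, edgeR). Bnip3, a mitophagy receptor, was higher by 2.53 (SE 0.162, adjusted p = 0.0084, edgeR), from 23.9 CPM ± 4.23 (SD, n = 4) to 137 CPM ± 19.7 (SD, n = 2). Among the other 9 that rose were Angpt2 (2.76) and Adm (2.43), which act on vessels, Pdk1 (2.16), which limits pyruvate entry into mitochondria, the glycolytic enzymes Aldoa (1.59) and Pfkl (1.29), the collagen prolyl hydroxylase subunit P4ha1 (1.40), the glucose transporter Slc2a3 (1.17) and the disulfide-forming oxidase Ero1l (0.66), each with its log2 difference.

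In the fit of group alone, without litter, the Ndrg1 difference was near the low end of this list. Since the study's model with litter lists Ndrg1 as upregulated, this place holds only for the fit of group alone. Only 1 of the 48 targets, the collagen cross-linking enzyme Lox, had a lower difference than Ndrg1 (-0.45), and the other 3 below zero were the aldolase Aldoc (-0.19), the cyclin Ccng2 (-0.11) and the lipid droplet protein Hilpda (-0.037). None of these 4 passed the test (adjusted p from 0.721 to 0.950, edgeR). With all libraries, the upper end of the Ndrg1 interval, 0.98, was below the list's median of 1.06. This upper end was 1.27, 1.28 and 1.19 without control 1, 2 or 3, and 0.011 without control 4. The 95% intervals of all 4 NDRG genes reached no higher than 0.98 with all libraries. Those of Vegfa, Bnip3, Angpt2, Adm and Pdk1 began at 1.64 or more.

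**Figure D3:**
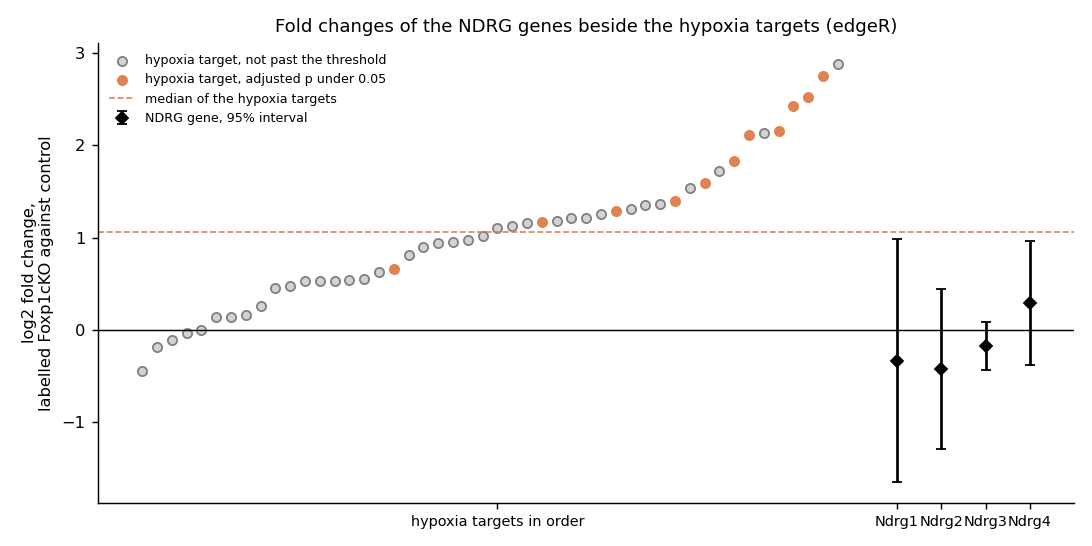
Log2 difference, Foxp1cKO label against control, of 48 hypoxia targets in order of size (grey circles, orange where the adjusted p is under 0.05, with the median as a dashed line) and of the 4 NDRG genes (black diamonds with 95% intervals). In this fit of group alone with all libraries, Ndrg1, Ndrg2 and Ndrg3 lie below zero. The median of the targets, 1.06, lies above all 4 intervals.

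Ndrg1 and the hypoxia targets also differed in their order within the controls. Relative to the control mean, the mean log2 level of the hypoxia targets was 0.075, -0.025, -0.18 and 0.13 in controls 1 to 4 and 0.92 and 1.20 under the Foxp1cKO label. That of Ndrg1 was 0.50, 0.38, 0.62 and -1.49 in controls and -0.69 and 0.27 under the label. Control 4 was thus the highest control for the targets and the lowest for Ndrg1, and control 3 the reverse. In bulk tissue, fewer cells of a type and less RNA per cell cannot be told apart.

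**Figure D4:**
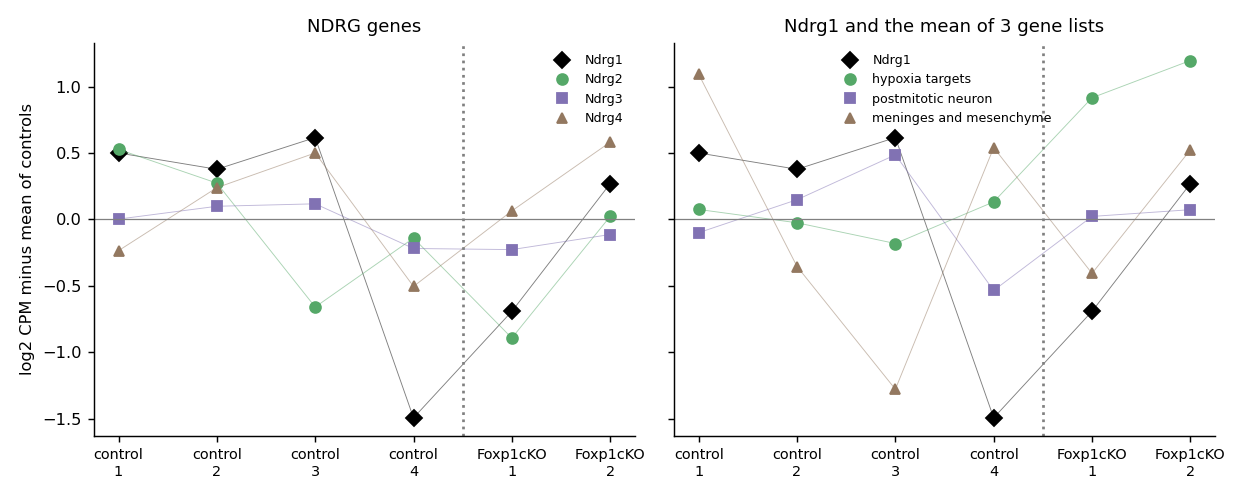
Log2 CPM of each library minus the mean of controls, for the 4 NDRG genes (left) and for Ndrg1 beside the mean of the hypoxia targets, the neuron list and the meninges list (right), where lines only join the points of a gene or list. Ndrg1 is lowest in control 4, at -1.49, while the hypoxia targets are high only under the Foxp1cKO label, at 0.92 and 1.20.

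The genes that sense oxygen were examined next. Of 10 HIF subunits and oxygen sensors 0 were called by edgeR or limma, against 0.152% and 0.158% of all genes. An unadjusted p under 0.05 was reached by 3, against 13% of all genes. DESeq2 called 2 higher, against 3.36% of genes in either direction. Without control 4 edgeR called 1 (Egln3), against 0.562% of all genes. Egln1 and Egln3 stand in the hypoxia target list too. The prolyl hydroxylases Egln1 and Egln3, which mark HIF for degradation and are HIF targets themselves, were at 101 CPM ± 3.73 and 9.62 CPM ± 2.49 in controls (SD, n = 4). Under the Foxp1cKO label they were at 147 CPM ± 11.6 and 31.7 CPM ± 6.67 (SD, n = 2), with log2 differences of 0.54 and 1.72 and an adjusted p of 0.076 each by edgeR. Hif3a was at 40.8 CPM ± 13.3 against 71.3 CPM ± 0.95 (log2 difference 0.80, adjusted p = 0.314, edgeR). Both libraries labelled Foxp1cKO exceeded all controls for these 3 genes. Hif1a, the oxygen-regulated subunit, was at 60.8 CPM ± 4.17 and 63.3 CPM ± 4.96, a log2 difference of 0.058 (SE 0.093, adjusted p = 0.83, edgeR). Its partner Arnt (0.031) and the HIF ubiquitin ligase subunit Vhl (-0.24) did not pass the test either.

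N-myc, for which the family is named, was measured as Mycn. It was at 104, 91.9, 77.7 and 128 CPM in controls 1 to 4 and at 125 and 135 CPM under the Foxp1cKO label (log2 difference 0.37, SE 0.181, adjusted p = 0.434, edgeR). Control 4 was the highest control for Mycn and control 3 the lowest, the reverse of Ndrg1, Ndrg3 and Ndrg4. Of the 12 genes of the MYC network 0 were called by edgeR or limma. An unadjusted p under 0.05 was reached by 1, against 13% of all genes. DESeq2 called 1 lower, against 3.36% of genes in either direction. That gene was Mxd3, which encodes a partner of Max that competes with MYC, at 26.6 CPM ± 2.36 in controls and 19.2 CPM ± 1.34 under the label (log2 difference -0.47, adjusted p = 0.242, edgeR). Myc itself was at 12.4 to 17.9 CPM over all libraries, with a difference of 0.033.

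The kinases that act on NDRG proteins did not pass the test. Of 7 listed, 6 were in the table and 0 of these were called by edgeR, DESeq2 or limma. An unadjusted p under 0.05 was reached by 0 of the 6, against 13% of all genes. Sgk1, which phosphorylates the Ndrg1 repeats shown above, was at 9.59, 8.03, 11.5 and 6.59 CPM in controls 1 to 4 and at 12 and 9.99 CPM under the Foxp1cKO label (log2 difference 0.30, adjusted p = 0.608, edgeR). Its highest and lowest controls were those of Ndrg1, controls 3 and 4. Gsk3b differed by 0.11 and Sgk3 by -0.095 on the log2 scale.

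The cell types that each member is known from were checked by their marker lists. For postmitotic neurons, the source best known for Ndrg4, 12 of 13 markers were in the table and summed to 4049, 4898, 5419 and 2950 CPM in controls 1 to 4 and to 3965 and 4043 CPM under the Foxp1cKO label. Control 3 was highest and control 4 lowest, as for Ndrg1, Ndrg3 and Ndrg4. Of these 12 genes 0 were called by edgeR, DESeq2 or limma and 0 had an unadjusted p under 0.05, against 13% of all genes. For radial glia and astrocytes, 12 of 14 markers summed to 2188 to 2654 CPM in controls and to 2434 and 2465 CPM under the label. Of these 0 were called by any of the 3 tools and 2 had an unadjusted p under 0.05, against 13% of all genes. These 2 were the glutamate transporter Slc1a3 (0.37) and the fatty acid binding protein Fabp7 (-0.43). Markers of both cell types were present in every library. The part of cell composition in the NDRG levels was not tested.

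Oligodendrocyte and Schwann cell markers, the lineages in which Ndrg1 is most abundant in the adult, were low. Of 11 markers 6 were in the table, and Sox10, Mag, Mog and Mobp were not listed there. The sum of the 6 was 63.2 to 76.1 CPM in controls and 66.8 and 122 CPM under the Foxp1cKO label. Of the 6, 0 were called by any of the 3 tools and 2 had an unadjusted p under 0.05, against 13% of all genes. The high library was the second labelled Foxp1cKO, in which all 4 NDRG genes exceeded the first.

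Other tissue in the dissection varied between libraries. The 8 markers of meninges and mesenchyme summed to 590, 192, 110 and 385 CPM in controls 1 to 4 and to 176 and 368 CPM under the Foxp1cKO label. As for Ndrg2, control 1 was highest, control 3 was the lowest control, and the first library labelled Foxp1cKO was below the second, while controls 2 and 4 stood in the opposite order. None of the 8 was called by the 3 tools or had an unadjusted p under 0.05, which 13% of all genes had. Erythroid markers summed to 1436, 1090, 1139 and 3429 CPM in controls and to 3760 and 4021 CPM under the label. Of these, 7 of 8 were higher, 0 were called by edgeR or limma and 3 had an unadjusted p under 0.05. DESeq2 called 1, against 3.36% of genes. Control 4 was close to the libraries labelled Foxp1cKO in this list. Without control 4 edgeR called 4 of the 8, against 0.562% of all genes. The sums over the 10 endothelial markers were 150 to 230 CPM in controls and 208 and 256 CPM under the label. Of the 10, edgeR and limma called 1, the VEGF receptor Flt1 (1.64), against 0.152% and 0.158% of all genes. DESeq2 called 2. The 7 microglia and mast cell markers in the table summed to 83.1 to 134 CPM in controls and 86.6 and 115 CPM under the label. Of the 7, 0 were called by any tool and 1 had an unadjusted p under 0.05, against 13% of all genes. The 4 choroid plexus and hem markers in the table summed to 8.09 to 13.4 CPM in controls and 11.1 and 11.5 CPM under the label, with the same counts. Their part in the NDRG levels was not tested.

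For each member the 5 genes with the most similar pattern were found, by the root mean square difference of centred log2 CPM over the 6 libraries among 13843 genes. For Ndrg1 they were Rgs6 (0.122), a regulator of G protein signalling, Ppp1r14c (0.167), an inhibitor of protein phosphatase, the folate enzyme Aldh1l1 (0.168), which is also among the radial glia and astrocyte markers above, Sla (0.193), an adaptor that lies 97489 bases from Ndrg1 on chromosome 15, and the adrenergic receptor Adra2c (0.195). All 5 were lowest in control 4 and next lowest in the first library labelled Foxp1cKO. The study's model with litter lists Rgs6, Ppp1r14c and Aldh1l1, like Ndrg1, among its most upregulated genes, but not Sla or Adra2c. Aldh1l1, for example, was at 8.43, 10.7, 12.3 and 2.64 CPM in controls 1 to 4 and at 5.25 and 8.90 CPM under the label. No paralog was among these 5. Of the 13843 genes, Ndrg4 stood at rank 632 (0.582), Ndrg3 at rank 1485 (0.654) and Ndrg2 at rank 5698 (0.768).

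Each paralog had neighbours in pattern of its own. For Ndrg2 these were the activin subunit Inhbb (0.110), the lipocalin Apod (0.127), the ferroxidase Heph (0.154), the actin-associated Synpo2 (0.171) and the tubulin Tuba4a (0.200). For Ndrg4 they were the mitochondrial creatine kinase Ckmt1 (0.0708), the potassium channel Kcna2 (0.0741), Gm9899 (0.0891), Dzank1 (0.0965) and Bean1 (0.0968). For Ndrg3, whose own pattern was nearly flat, they were Ccdc107 (0.0209), the inositol phosphate kinase Ip6k1 (0.0245), the chaperone Unc45a (0.0258), the phosphofructokinase Pfkm (0.0263) and 2700081O15Rik (0.0267). Such similarity over 6 libraries shares depth, dissection, scaling and any difference between litters, and is given as a description.

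The genes next to each member on the chromosome were compared in the same way. The nearest protein-coding genes in the table were Ccn4 (6116 bases away, log2 difference -0.60, adjusted p = 0.656, edgeR) and St3gal1 (133234 bases, 0.011) for Ndrg1, Slc39a2 (0.24) and Arhgef40 (-0.21) for Ndrg2, Rab5if (-0.21) and Dsn1 (-0.097) for Ndrg3, and Gins3 (-0.30) and Setd6 (-0.27) for Ndrg4. None of these 8 was called by edgeR. In GENCODE M21 the unlisted genes Gm2895 and Gm17035 overlap Ndrg1 on the opposite strand, and the small RNA gene Gm27653 lies within Ndrg3 on the same strand. Whether the counting used the strand is not given in the sources used here, so reads from the opposite strand could not be told apart from those of Ndrg1.

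The letters that HIF binds were searched in RefSeq promoter windows (GRCm38.p6), which matched Ndrg2 (3 windows), Ndrg3 (2) and Ndrg4 (4), but not Ndrg1. The cores ACGTG and GCGTG were searched on both strands of the 250 bases before each start, where GCGTG was in 28.2% and ACGTG in 16.6% of all 32851 windows. GCGTG was found in 2 of 3 Ndrg2 windows, 1 of 2 Ndrg3 windows and 2 of 4 Ndrg4 windows. ACGTG was found only in 1 Ndrg4 window, within the MYC-type E-box CACGTG that 6.02% of windows hold. That stretch is shown because it puts all cores of the window side by side, at chr8:95677711-95677737 on the plus strand, 52 to 26 bases before the start, with the cores and the E-box in capitals.
Ndrg4: CACGCccacccaccCACGTGggCACGC
The E-box contains ACGTG on both strands, so that its matches overlap. Of the 38 hypoxia targets with a window, 34 held at least 1 of the 2 cores (89.5%), as did 58.8% of the 12174 genes tested that have a window. A match is a description of letters, and Ndrg4, with the most matches, differed by 0.29 as given above.

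The 4 differences were recomputed under 16 other settings each. Only Ndrg2 passed the threshold in any of them, and only where replicate numbers were crossed between the groups (7.62% of all genes called). Changing the tool, the scaling or the filter on low counts moved Ndrg1 between -0.34 and -0.20, Ndrg2 between -0.43 and -0.40, Ndrg3 between -0.18 and -0.16 and Ndrg4 between 0.29 and 0.31. Leaving out 1 library at a time moved them further, to between -0.92 and 0.068 for Ndrg1, -0.98 and -0.044 for Ndrg2, -0.25 and -0.12 for Ndrg3 and -0.0088 and 0.53 for Ndrg4.

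**Figure D5:**
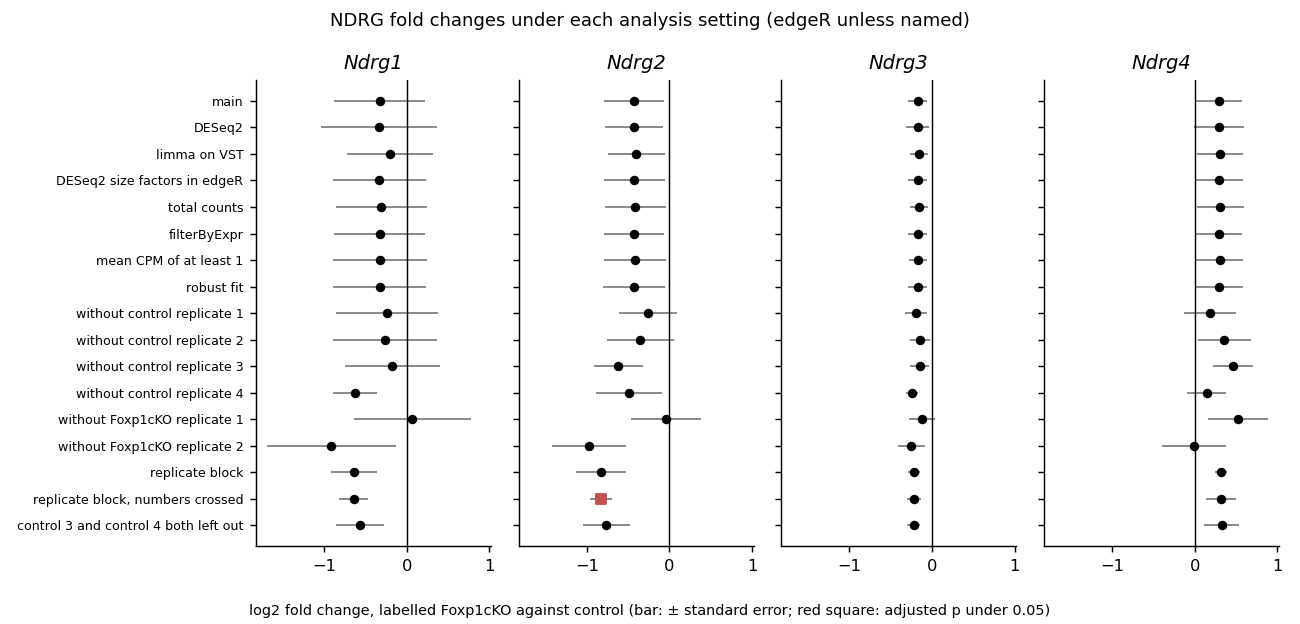
Log2 difference of each NDRG gene, Foxp1cKO label against control, under the main setting and 16 others (rows), with ± SE as bars and a red square where the adjusted p is under 0.05. The 7 settings that change tool, scaling or filter lie together, the settings that leave out a library spread, and the one red square is Ndrg2 with the replicate numbers crossed, at -0.83, a setting under which 7.62% of all genes are called.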

How the data were processed

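RNA of E12.5 lateral cortex (4 controls, 2 Foxp1cKO) was sequenced by the authors from stranded libraries, aligned to mm10 (Gencode version 17) with STAR and counted with HTSeq 0.9.1 in union mode. Genes with low counts were removed by the authors. The deposited count table holds whole counts without normalization, and the deposited VST table holds log2-like values of the same genes. The litter, a term in the authors' DESeq2 model, is not in the labels and was not used.

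Groups were taken from the sample labels. Counts were tested in R 4.3.3 with edgeR 4.0.16 (quasi-likelihood, TMM, group alone, all 17068 genes, Benjamini-Hochberg adjustment, threshold 0.05). DESeq2 1.42.0 and limma 3.58.1 (on VST), other scalings and filters, each library left out and a replicate block were alternatives. CPM are scaled by TMM, and log2 CPM use a prior count of 2. The tests were tested on simulated data. P-values measure the spread between these libraries, and limits at 3 counts cover counting error only. The members and lists were chosen with earlier results of these data known. Named genes are the members, Foxp1, Hif1a, the genes called or lowest in p in each list, the 5 most similar genes and the chromosomal neighbours of each member, and others were named after their values were seen. Aldoa has 2 identifiers, of which the one with more counts was used. Sequences come from GENCODE M21 transcripts (GRCm38) and RefSeq, and protein sequences were not used here. Single genes of some lists are not reported here.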

Additional observations from a re-analysis of the deposited data

Results flagged for a closer look

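Ndrg1 in control 4 stood apart from the other controls on the log2 scale. Its value there was 3.06 log2 CPM, and the gap to the nearest control took up 0.887 of the range of the 4 controls, above Dixon's 95% critical value for 4 samples. On the linear CPM scale the same gap took up 0.802 of the range and did not pass that value. The log2 ratio of Ndrg1 to Ndrg3 in control 4, -3.05, passed it too, with a gap of 0.876 of the range. Among 11 sets of control values tested, 2 had such a sample, both in control 4 and both through Ndrg1. Chance gives about 1 in 20 independent sets, but these sets share values, so their count cannot be set against that rate. Control 4 also stood apart in other genes. The embryonic globins Hbb-y and Hba-x were at 2340 and 559 CPM there, at 754 to 935 and 80.2 to 112 CPM in controls 1 to 3, and at 2454 to 2739 and 653 to 720 CPM in the libraries labelled Foxp1cKO, and the neuron markers had their lowest sum, 2950 CPM. Litter, a term in the study's model, is not in the labels, and its part was not tested. Without control 4 the Ndrg1 difference was -0.63 (SE 0.266) and 0 of the 4 NDRG genes passed the test by edgeR.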

How the results depend on the processing

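In 14 settings planned for each member, 0 of the 4 NDRG genes passed the threshold, with a smallest adjusted p of 0.270 (Ndrg1), 0.277 (Ndrg2), 0.183 (Ndrg3) and 0.232 (Ndrg4). The sign turned for Ndrg1 without Foxp1cKO 1 (0.068), for Ndrg4 without Foxp1cKO 2 (-0.0088), for the ratio of Ndrg1 to Ndrg2 without control 4 (-0.23) and for the ratio to Ndrg3 without control 1 (0.12), control 2 (0.052), control 3 (0.13) or Foxp1cKO 1 (0.38). Leaving out 1 library at a time gave ranges of -0.92 to 0.068 (Ndrg1), -0.98 to -0.044 (Ndrg2), -0.25 to -0.12 (Ndrg3), -0.0088 to 0.53 (Ndrg4), and for the ratio of Ndrg1 -0.23 to 0.65 (to Ndrg2), -0.47 to 0.38 (to Ndrg3) and -0.86 to -0.29 (to Ndrg4). It gave 2 to 96 genes past the threshold in place of 26, and 1 to 21 hypoxia targets in place of 11. DESeq2 called 507 genes and 35 hypoxia targets. The cause was not tested.

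Libraries of the same replicate number did not vary together over genes (correlations of deviations from the group mean -0.198 and 0.0157). With 2 libraries labelled Foxp1cKO, their deviations mirror each other, so these 2 values are not independent. Pairing with control 3 or control 4 was not examined, so these values cannot settle whether libraries were paired. With a replicate block on the libraries numbered 1 and 2, edgeR called 0 genes and 0 hypoxia targets (3027 and 38 at an unadjusted p under 0.05), and gave -0.64 for Ndrg1, -0.83 for Ndrg2, -0.22 for Ndrg3 and 0.32 for Ndrg4, none of them past the threshold. With the numbers crossed in this pairing, a setting added after seeing the data, 1301 genes and 39 hypoxia targets were called, and Ndrg2 passed the threshold at -0.83 (SE 0.136, adjusted p = 0.0084, edgeR). With control 3 and control 4 both left out, also added after seeing the data, 63 genes and 19 hypoxia targets were called, and 0 of the NDRG genes. With the longest transcript as the length, control levels were 6.68, 29.3, 20.1 and 18.3 RPKM for Ndrg1 to Ndrg4. Depth was no limit for the members, each with at least 655 counts per library, while 2 libraries in a group limit each difference.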
